A study of Mus musculus with 4 samples.

Results

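Pitx1 chromatin immunoprecipitation sequencing (ChIP-seq) peaks were described across the locus of Sox9 and the long gene desert that separates it from Kcnj2. The tissue was the embryonic hindlimb bud at E11.5, from mice of the ICR strain with wild-type genotype. The series holds 4 libraries, of which 2 are Pitx1 ChIP replicates and 2 are input chromatin without antibody, and peak lists were used for the 2 ChIP replicates. All groups share strain, genotype, tissue and age, and the labels do not say whether the replicates came from separate litters, so their spread may be technical. Members were the peaks whose midpoint lay in chr11:110800000-113000000 on mm9, a window of 2.2 Mb. This gave 46 of the 14753 peaks of replicate 1 and 68 of the 25027 peaks of replicate 2. Peaks that overlapped between the lists by at least 1 bp were joined, which made 35 replicated regions in the window, of 10274 in the series. The members were chosen by the position of the called peaks, and the locus was selected on its known peak counts, so counts, scores and densities are given as a description and none was tested.

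Sox9 encodes a transcription factor of the HMG-box family that limb mesenchyme needs to condense and to form cartilage. Its transcription is controlled by enhancers scattered over a very long stretch without other well-known genes, and in people, deletions and breakpoints far from the gene cause campomelic dysplasia and Pierre Robin sequence. Kcnj2, at the other end of the desert, encodes an inwardly rectifying potassium channel, and a boundary of chromatin folding lies between them. Duplications across that boundary bring Kcnj2 under the control of Sox9 enhancers in the limb and cause Cooks syndrome. Pitx1 is a bicoid-type homeodomain factor made in hindlimb and not in forelimb buds, where it helps to set hindlimb identity and the growth of its bones.

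Kcnj2 was placed at about 110.93 Mb and Sox9 at about 112.64 Mb of chromosome 11. Both positions are rounded to 10 kb, and all distances below carry that rounding. In the gene order of RefSeq (GRCm38, used for names only), 7 entries lie between them. These are 5 long noncoding RNAs (Gm30158, Gm30219, Gm30337, Gm39461 and BC006965), the pseudogene Gm11675 and Gm11677, which is annotated as protein coding. Kcnj16 is the protein-coding gene before Kcnj2, and Slc39a11 is the next one after Sox9. Because the peaks and this annotation are of different builds, no peak was assigned to any of these entries.

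Within the desert, replicated Pitx1 regions were densest in the middle and sparser towards both genes. Between Kcnj2 and Sox9 lay 32 of the 35 replicated regions, or 18.7 per Mb over 1.71 Mb. The short stretch from the start of the window to Kcnj2 held 2 regions in 0.13 Mb, or 15.4 per Mb. The 0.36 Mb beyond Sox9 held 1, or 2.78 per Mb. Within the desert the density was 4.76 per Mb in the part more than 1.5 Mb from Sox9, where 1 region lay, and 22.0 per Mb between 1.0 and 1.5 Mb. It was highest between 0.5 and 1.0 Mb from Sox9, at 26.0 per Mb (13 regions), and 14.0 per Mb in the last 0.5 Mb before the gene (7 regions). In the same order, replicate 1 alone had 4.76, 26, 32 and 22 peaks per Mb. Replicate 2 alone had 19.0, 34, 46 and 22 peaks per Mb. These distance classes were chosen after the positions were seen. The first and last peaks inside the window stood 18.2 kb and 124 kb from its edges in replicate 1, and 18.1 kb and 16.5 kb in replicate 2. Just outside, the next peaks were 86.7 kb and 78.7 kb before the start (scores 229 and 113) and 74.1 kb beyond the end in both lists (scores 325 and 1094).

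**Figure D1:**
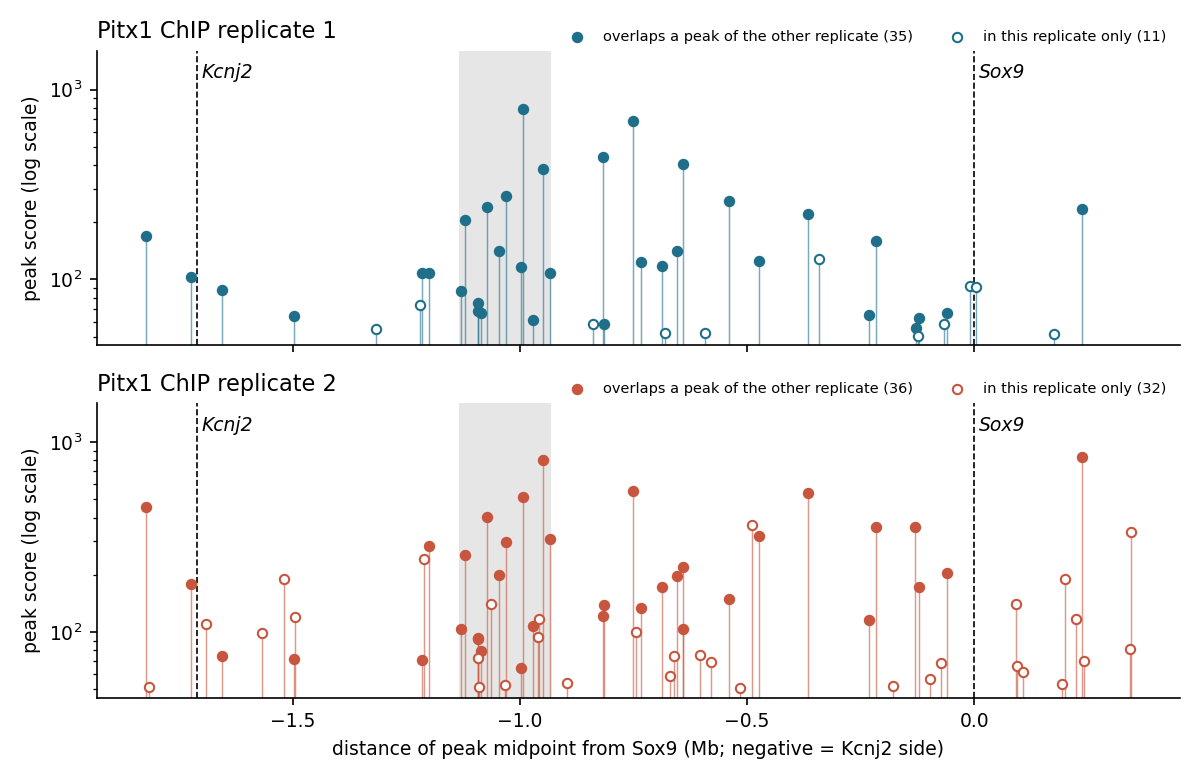
Deposited score of every Pitx1 peak (log axis) against the distance of its midpoint from Sox9 in Mb, replicate 1 above and replicate 2 below. Filled points overlap a peak of the other replicate and open points do not. Dashed lines mark Kcnj2 and Sox9, and grey marks the densest 200 kb, picked for its number of replicated regions.

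**Figure D2:**
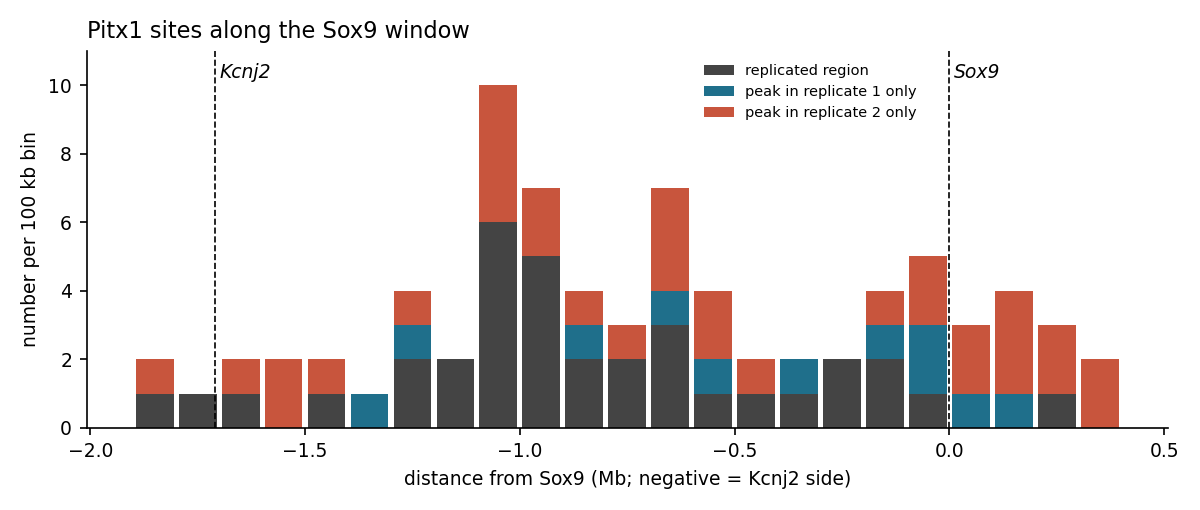
Number of replicated regions and of peaks found in a single replicate, per 100 kb bin of distance from Sox9 in Mb. The 2 bins with 5 or more replicated regions lie between 1.1 and 0.9 Mb before Sox9, with 6 and 5, and the bins at both ends are cut by the edge of the window.

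The shares of peaks of the locus that recurred between the replicates are given beside those of the whole lists, without a test. In replicate 1, 35 of 46 peaks overlapped a replicate 2 peak (76.1%, 95% Wilson interval 62.1 to 86.1%), against a background of 69.8% over all peaks of that list. In replicate 2, 36 of 68 did (52.9%, interval 41.2 to 64.3%), against 42.6%. Both backgrounds lie inside the intervals. These cover counting error only and treat peaks of the same libraries as independent, so they cannot serve as a test against the background. Of the strongest 10% of each list, 10 replicate 1 peaks and 15 replicate 2 peaks lay in the window, and 10 and 13 of these were shared, against 99.3% and 95% of the strongest 10% over the whole lists. The 4 replicate 1 peaks and 7 replicate 2 peaks from the weakest 10% were all unshared, where 42.9% and 15.5% were shared over the whole lists. The additional list of 1 bp positions that the authors deposited had 36 positions in the window. All 36 shared replicate 2 peaks of the window held one, at a median of 57.5 bp from the peak's midpoint. Over the whole series, 10625 of the 10658 shared replicate 2 peaks (99.7%) held one, and the list has 10625 positions. The positions thus follow the overlap of the 2 peak lists and are no separate evidence that sites recur.

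The densest 200 kb of the locus lay in mid-desert, far from both genes. It ran from 111509091 to 111706348, between 1.13 and 0.93 Mb before Sox9 and starting 0.58 Mb after Kcnj2, and held 13 replicated regions. That is 37.1% of the regions in 8.97% of the window's length. All 13 replicate 1 peaks of this stretch were shared, against 69.8% over the whole list. Replicate 2 had 19 peaks there, 6 of them unshared, where 42.6% of its whole list were shared. The stretch was picked for holding the most replicated regions, so its share of regions and its shared peaks are high by choice. The stretch was not uniformly strong. Its highest peaks were chr11:111645976-111646844, 0.99 Mb before Sox9, which scored 794 in replicate 1 (rank 51 of the list) and 512 in replicate 2 (rank 827), and chr11:111689440-111690592, 0.95 Mb before it, with 382 (rank 451) and 806 (rank 292). The replicates put these sites, which have 1 other region between them, in opposite order. Next came chr11:111567860-111568811, with scores of 241 and 403, and chr11:111608532-111609730, with 274 and 297.

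The other regions of the dense stretch had lower scores in replicate 1, and ranged from strong to weak in replicate 2. At its outer edge chr11:111509091-111510139 scored 86.8 in replicate 1 and 104 in replicate 2. Its neighbour chr11:111519539-111520460 scored 206 and 255, at rank percentiles of 11.2 and 11.4, where 0 is the strongest. At chr11:111593114-111593952 the scores were 141 and 200. The inner edge, chr11:111705093-111706348, scored 108 and 310, the latter in the best 10% of replicate 2. Lower-scored sites stood beside strong ones. The site chr11:111642427-111643715 lay 3.34 kb from the peak at rank 51. It scored 117 in replicate 1 (percentile 28.8) and 64.3 in replicate 2 (percentile 73.6), so it was weak in replicate 2 only. The scores at chr11:111668020-111668791 were 60.8 and 108.

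A tight group inside this stretch was made of peaks of middling or low rank. With neighbouring midpoints under 10 kb apart and at least 3 members, the window had 1 group, of 3 regions within 6.93 kb, from 111547457 to 111554388 and 1.09 Mb before Sox9. That is 3 of 35 regions, against a background of 5.98% of all replicated regions in such groups. The first region (chr11:111547457-111548017) scored 68.2 and 92.6, the second (chr11:111548308-111548846) 74.8 and 92.1, and the last (chr11:111553100-111554388) 66.2 and 79.2. They stood at rank percentiles of 56.8 to 67.6 in replicate 1 and 46.6 to 56.6 in replicate 2. Replicate 2 had 2 further unshared peaks 0.212 and 0.153 kb from replicate 1 peaks of the group. Read by the same rule, replicate 1 alone had 2 groups in the window and replicate 2 alone had 4. Distances under 10 kb were about as frequent as over the autosomes: 5 of 34 distances between neighbouring regions (14.7%) were under 10 kb, against 12.7%. The median distance was 30.5 kb, against 88.7 kb.

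**Figure D3:**
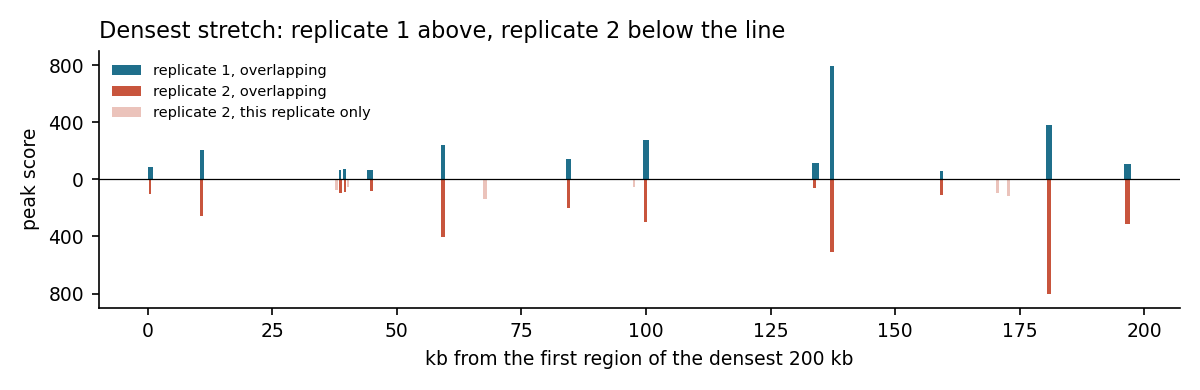
Peaks of the densest 200 kb, drawn to width in kb from its first region, with deposited scores of replicate 1 above the line and of replicate 2 below it. The highest bar of replicate 1 (794) and the highest of replicate 2 (806) belong to different regions, with 1 other between them, and pale bars are the 6 peaks of replicate 2 without a partner.

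Strong replicated regions also stood between the dense stretch and Sox9, with wider spacing. The region chr11:111888992-111890033, 0.75 Mb before Sox9, scored 685 in replicate 1 (rank 78) and 555 in replicate 2 (rank 698). By the sum of its ranks it was second in the window and 283rd of the 10274 regions of the series. At 0.64 Mb, chr11:111998077-111999873 scored 405 in replicate 1, where it was 1 peak of 1797 bp, and at best 220 in replicate 2, where it was split into 2 peaks. It was the only region of the window with more than 1 peak of a list. Closer to the gene, chr11:112273483-112274542 (0.37 Mb) scored 220 and 538, and chr11:112424060-112424979 (0.22 Mb) scored 160 and 355. The remaining regions between 0.93 and 0.3 Mb had scores from 58.4 to 441 in replicate 1 and from 121 to 320 in replicate 2. At the upper end of that range for replicate 1 was chr11:111822154-111824372, with 441 (rank 311) against 121 in replicate 2 (rank 8366). Its peaks overlapped with midpoints 703 bp apart, the largest offset in the window, where the median was 57 bp.

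With both full lists joined, Sox9 itself lay in the longest stretch without a replicated region. The nearest region before the gene was chr11:112578372-112579221, at 0.06 Mb, which scored 66.7 in replicate 1 and 205 in replicate 2. The nearest beyond it was chr11:112875352-112876551, at 0.24 Mb, with 234 (rank 1307) and 835 (rank 264), the highest replicate 2 score of the window. Their midpoints were 297 kb apart. A replicate 1 peak, chr11:112643014-112643871, fell at the rounded position of Sox9, with a score of 91.8 (rank 6161 of 14753), but the nearest replicate 2 peak was 64.0 kb away. Another replicate 1 peak, chr11:112630069-112630495, lay 0.01 Mb before the gene with a score of 91.9 and was likewise unshared. With the gene's position rounded, whether either peak touches the Sox9 promoter was not resolved. Beyond the gene the lists differed: replicate 1 had 3 peaks and replicate 2 had 10 in the last 0.36 Mb, and they had 1 in common. That is 8.33 per Mb in replicate 1 and 27.8 per Mb in replicate 2, where the desert had 24.0 and 32.2 per Mb.

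The stretch around Sox9 depended on which list was read. In replicate 1 alone the peaks on each side of the rounded position were 13.2 kb apart, and in replicate 2 alone 153 kb. The longest stretch in each list alone was elsewhere, on the Kcnj2 side of the dense stretch. It measured 180 kb in replicate 1, after chr11:111143881-111144360, and 280 kb in replicate 2, after chr11:111144737-111145361. Replicated regions left 281 kb free there, between chr11:111143881-111144409 (scores 64.3 and 72.5) and chr11:111424261-111425171 (108 and 71.5). Beside the latter, chr11:111439087-111439772 scored 109 in replicate 1 and 283 in replicate 2, 1.20 Mb before Sox9.

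At the Kcnj2 end, the 0.13 Mb before the gene held 2 replicated regions (15.4 per Mb). The desert held 18.7 per Mb and the 0.36 Mb beyond Sox9 held 2.78 per Mb. Nearest to Kcnj2 was chr11:110917229-110918107, about 0.01 Mb before it, which scored 103 in replicate 1 and 179 in replicate 2. On the Sox9 side the nearest was chr11:110985404-110986199, at 0.06 Mb, with 87.7 and 74.5. The strongest region of this end was the first of the window, chr11:110817737-110818653, 0.11 Mb before Kcnj2, with 170 and 453. It was eighth in the window by summed rank.

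By strength the replicated regions of the locus spanned most of the series' range. Scores ran from 55.4 to 794 (median 118) in replicate 1 and from 64.3 to 835 (median 198) in replicate 2. Scores are the authors' own values for each peak and were compared as ranks within a list. By summed rank the median region stood at percentile 33.4 of all replicated regions (quartiles 15.3 and 70.0). The stronger part of that order (percentile 50 or below) held 21 regions and the weaker part 14. The best 10% by summed rank held 6 of 35 (17.1%), against 10% by construction, and 7 of 35 were in the best 10% of both lists, against a background of 10.5%. Of the 10 regions with the lowest summed rank, 4 lay in the densest 200 kb, which held 13 of all 35, and 9 upstream of Sox9, where 34 of all 35 lay. Median peak width was 858 bp in replicate 1 and 544 bp in replicate 2, against 796 and 455 bp over the whole lists.

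The replicates ordered the regions of the locus only in part alike. Across the 35 regions Spearman's rho between scores was 0.58, against 0.56 over all 10274. Both describe sites of the same 2 libraries. In 15 regions the rank percentiles lay within 10 points of each other, and in 9 (25.7%, against 28.2% of all replicated regions) they were more than 30 points apart. Percentiles were better in replicate 2 for 24 of 35 (68.6%, against 65.6%). Replicate 2 has the longer list (25027 peaks against 14753), so an equal rank gives a lower percentile there. For example, chr11:111509091-111510139 ranked 6647 in replicate 1 and 10099 in replicate 2, at percentiles of 45.1 and 40.4. A better percentile in replicate 2 is thus no measure of stronger signal. The 5 regions within 0.3 Mb before Sox9 all had better percentiles and ranks in replicate 2, and 4 of them differed by more than 30 points. The widest difference was at chr11:112510127-112510984, 0.13 Mb before Sox9, with a score of 55.4 in replicate 1 (percentile 87.1) and 357 in replicate 2 (percentile 6.69). At chr11:112518425-112519164 the scores were 62.3 and 173, and at chr11:112406881-112407834 they were 65.2 and 115. This subset was chosen after the ranks were seen.

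**Figure D4:**
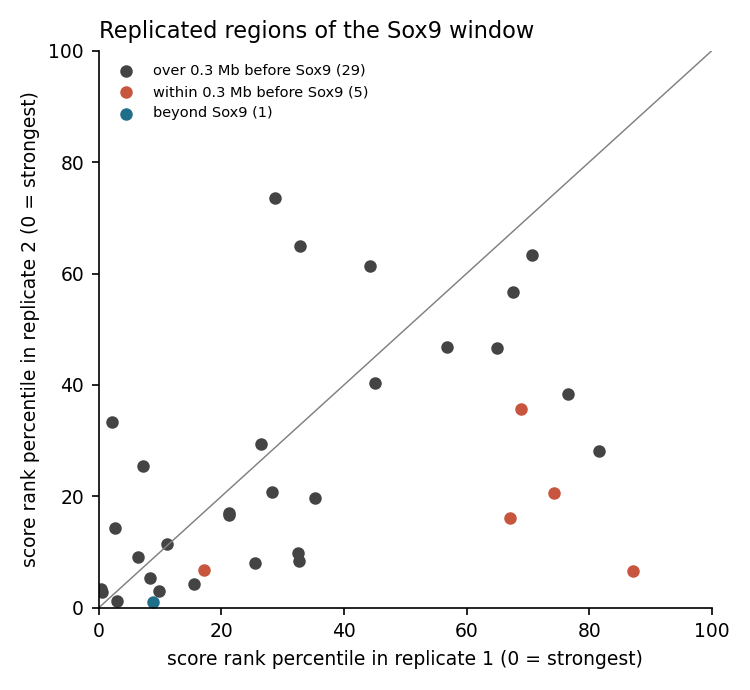
Score rank percentile of the 35 replicated regions in replicate 1 against replicate 2, where 0 is the strongest peak of a list and the line marks equal percentiles. The 5 regions within 0.3 Mb before Sox9 all lie below the line, on the side of stronger rank in replicate 2.

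Peaks found in a single list had lower median scores than shared ones, but were not all weak. The 11 unshared peaks of replicate 1 scored 50.1 to 128 (median 58.2), against a median of 118 for shared ones, and 8 of the 11 ranked in the weaker 50% of the list, against 78.1% of all unshared peaks of that list. The 32 unshared peaks of replicate 2 scored 50.7 to 368 (median 75.2), against 188, and 18 of the 32 ranked in the weaker 50%, against 68.3%. The best unshared peak of replicate 1 was chr11:112298372-112299113, 0.34 Mb before Sox9 with a score of 128 at rank 3649, and replicate 2 had no peak within 24.0 kb of it. The best of replicate 2 was chr11:112149542-112150101, 0.49 Mb before Sox9 with a score of 368 at rank 1584, and its closest replicate 1 peak was 15.3 kb off. The other unshared replicate 2 peak in the strongest 10%, chr11:112983263-112983819, lay 0.34 Mb beyond Sox9 (score 335, rank 1856). Within 10 kb of a peak of the other list lay 5 of the 11, against 31.1% of all unshared replicate 1 peaks, and 14 of the 32, against 23.7% of all unshared replicate 2 peaks. The window was chosen for its peak counts, so nothing is read from these shares. The files give no read counts, so whether a peak missing from a list lacked signal or fell under the caller's threshold was not tested.

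The window held more Pitx1 regions than nearly all autosomal windows of its length. Over 1110 whole windows of 2.2 Mb, the median was 7 replicated regions (quartiles 4 and 12) and the highest 51. The Sox9 window, with 35, was 5 times the median, and 9 windows (0.811%) held as many or more. On chromosome 11 the median of 53 windows was 9 and the highest 25. By single lists the window had 46 peaks against a median of 11 in replicate 1, and 68 against 20 in replicate 2. The stretches of equal length on each side of it held 16 and 14 replicated regions. Windows with sequence that reads cannot be placed on were not removed, and 71 windows had 0 regions. Whether chromatin that any antibody would recover contributes to these overlaps was not tested.

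**Figure D5:**
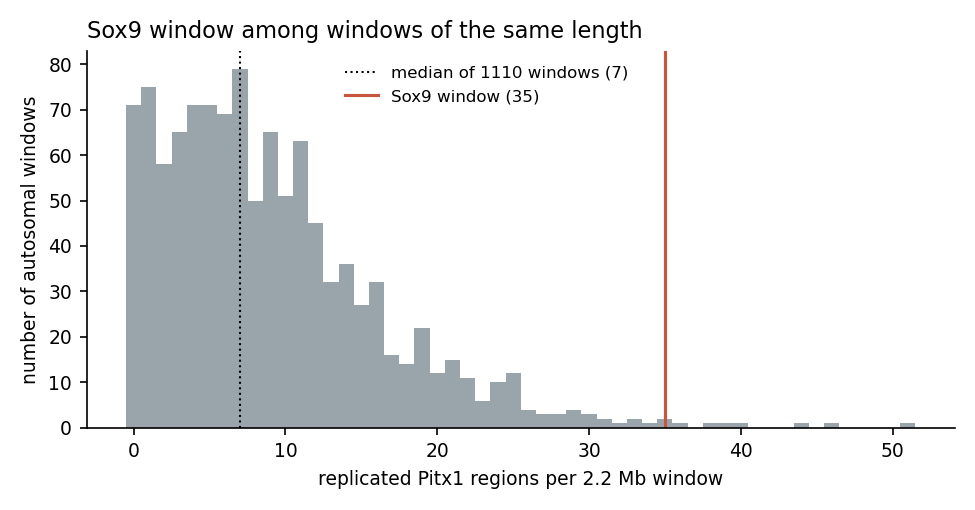
Number of autosomal windows of 2.2 Mb (vertical axis) by the number of replicated Pitx1 regions in them (horizontal axis). The solid line marks the Sox9 window at 35 and the dotted line the median of 7.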

How the data were processed

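Peaks came from 2 Pitx1 ChIP libraries; the 2 input libraries had no list here and enter only through whatever the peak caller did with them. The submitters' processing notes name build mm9, MACS 1.4.2, bedtools 2.16.2, Bowtie 0.12.8 and CASAVA (1.7, 1.8.2), without roles or settings. The lists deposited by the authors give a position and a score for each peak, and peaks are numbered from 1 in each list, as separate calls per library would be. Scores were used as ranks within a list. The sources used here do not give the origin of the list of 1 bp positions. Read depth is unknown. Replicated regions, groups (at least 3 regions, midpoints under 10 kb apart), 100 kb bins and windows of 2.2 Mb tiled over the 19 autosomes up to the last peak were computed with pandas 2.3.3, numpy 2.4.6 and scipy 1.17.1 in Python 3.11.15, drawn with matplotlib 3.10.9, and the counting was tested on simulated lists. The series has no second condition with peaks, so no test between groups was made. Members, lists and definitions were chosen with earlier results of these data known. Regions named are the 10 with the lowest summed rank, those nearest to Sox9 and Kcnj2 on each side, the group's members, the ends of the densest and the empty stretches, and the best unshared peaks; others were named after their values were seen. No sequence is shown, because no mm9 genome was used here. Coordinates count from 1. Alternatives changed the score threshold, list length, overlap rule, gap and window length, or used a replicate alone.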

Additional observations from a re-analysis of the deposited data

How the results depend on the processing

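No paired analysis was possible because no peaks were listed for the inputs that carry the same replicate numbers. The window stayed above the median autosomal window in every alternative reported for that density, by 3.4 to 6.5 times. Density, groups and the densest stretch are not reported for reciprocal overlap of 50% or for midpoints within 250 bp. From 80.9% (replicate 2 alone) to 91.4% of the window's regions lay between Kcnj2 and Sox9, a part that takes up 1.71 Mb of the 2.2 Mb. There were 22 regions when each list was limited to its best 50%, and 13 with the best 25%, as shorter lists must give fewer, and each list alone gave 46 to 68. Reciprocal overlap of 50% lowered the shared part to 56.5% of replicate 1 and 38.2% of replicate 2 peaks, as a stricter rule must, and equal numbers of best peaks gave 68.1% in replicate 2. The single group was lost in the best 50% (0) and with gaps under 5 kb (0). It became 2 with gaps under 25 kb, and each list alone gave 2 to 4. The densest stretch held 8 regions in the best 50%, 8 in windows of 100 kb, 20 in windows of 500 kb and 13 to 19 peaks in each list alone. Ranked by 1 list, over all peaks of that list, the median percentile was 28.3 in replicate 1 and 17.0 in replicate 2. For all replicated regions of the series these medians were 38.2 and 25.3. The 2 lists differ in length, so these percentiles cannot be compared between them. Spearman's rho was 0.43 in the best 50%; the cause was not tested. The longest empty stretch was 522 kb in the best 50%, 702 kb in the best 25% and 522 kb with equal numbers of best peaks, and 180 to 280 kb in each list alone. The one around Sox9 was 451 kb in the best 50% and in the best 25%, and 297 kb with equal numbers of best peaks. In each list alone it was 13.2 to 153 kb. In all of these settings the longest stretch was thus not the one around Sox9. The alternatives for these stretches, for rho and for the share between Kcnj2 and Sox9, and the density over windows with at least 1 peak, were chosen after seeing the data. With depth unknown, little can be said of peaks found in 1 list.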
